A study of Mus musculus with 12 samples.

Results

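The immediate early genes followed here are 10 transcription factor genes of 3 families, read on 16 probe sets of a mouse whole-genome expression array that holds 45101 probe sets in all. The AP-1 family was represented by Fos, Fosb, Jun and Junb (5 probe sets), the EGR family by Egr1, Egr2 and Egr3 (5 probe sets) and the NR4A family by Nr4a1, Nr4a2 and Nr4a3 (6 probe sets). The rule that chooses members goes by gene name and uses no measured value. The members were nevertheless chosen with earlier results of these data known. The deposited table lists probe set identifiers only, and the gene names of the 16 came with the list that defines the set. Of the 16 probe sets, 13 passed the filter on low values (a log2 value of at least 5 on at least 3 of the 12 arrays), and each of those 13 reached that value on all 12 arrays, so that none passed through a single group. The other 3 probe sets, 1 of Egr3 and both of Nr4a3, were below it on every array, which leaves 9 of the 10 genes tested. Where a gene has several probe sets they are lettered in the order of their array identifiers. Jun-A is 1417409_AT and Jun-B 1448694_AT, Egr2-A is 1427682_A_AT and Egr2-B 1427683_AT, and Egr3-A is 1421486_AT and Egr3-B 1436329_AT. Nr4a2-A is 1447863_S_AT, Nr4a2-B 1450749_A_AT and Nr4a2-C 1450750_A_AT, while Nr4a3-A is 1421079_AT and Nr4a3-B 1421080_AT. Fosb was read on 1422134_AT, Junb on 1415899_AT and Egr1 on 1417065_AT, and the plots give the identifiers of Fos and Nr4a1.

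The study profiled splenic CD4+ T cells from 4 groups of 3 arrays each. Transgenic Treg arrays held CD4+ CD25hi regulatory T cells (Treg) sorted fresh from pools of 4, 8 and 3 C57BL/6-2Rbeta-WT/thymus transgenic mice, obtained by breeding to animals without IL-2Rbeta and described as having T cells with defective IL-2 receptors. These mice were 33 weeks old on array 1, 13 weeks old on array 2 and 7 to 16 weeks old on array 3. C57BL/6 Treg arrays held the same sort from pools of 8, 8 and 15 normal C57BL/6 mice aged 12, 12 and 10 weeks. Transgenic effector arrays held CD4+ CD25+ cells sorted after spleen cells had been cultured for 48 hours with anti-CD3, which stimulates cells through their T cell receptor, from 1 mouse an array aged 15, 14 and 9 weeks. C57BL/6 effector arrays held the same preparation from normal mice aged 10, 14 and 14 weeks. The transgene supplies a wild-type IL-2Rbeta chain, and its name places it in the thymus. Population, Treg or effector, went together with culture, pooling of mice and run of samples, so that these cannot be told apart in any comparison between populations. The purification label of transgenic effector array 3 describes fresh spleen cells, against its title and source, which give the culture, and several results are also given without it. In these bulk samples fewer cells of a type and less RNA per cell cannot be told apart either.

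Immediate early genes are transcribed within minutes of T cell receptor or growth factor signals and need no newly made protein to be switched on. FOS and JUN proteins pair to form AP-1, EGR proteins are zinc finger factors, and NR4A proteins are orphan nuclear receptors. In T cells the AP-1 factors work with NFAT on cytokine genes, whereas Egr2 and Egr3 in mouse T cells are known for restraining activation and for anergy. NR4A genes respond to antigen receptor signals and contribute to Treg development in mice.

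The 3 genes with a changed probe set between strains were Fosb, Egr2 and Nr4a2, and their promoters are shown because immediate early genes are read out from short elements close to the start. RefSeq windows (GRCm38.p6) from 250 bases before to 50 bases after the transcription start were matched for 8 of the 10 genes, all but Egr1 and Egr3. The windows of a single chromosome were left out here before matching, and from the counts over all windows too. A gene of that chromosome may therefore still have a window, and whether this concerns Egr1 or Egr3 is not given here. Fosb lies at chr7:19309996-19310295 on the minus strand, Egr2 at chr10:67537619-67537918 on the plus strand and Nr4a2 at chr2:57123954-57124253 on the minus strand. Egr2 has 5 listed windows, and the one printed was taken because it held the most matches, so its content is no finding. Capitals mark the cyclic AMP response element core TGACG on either strand and, in Egr2, the CArG box, the motif of serum response factor. The sequences run 5′ to 3′ on the gene's own strand.
Fosb: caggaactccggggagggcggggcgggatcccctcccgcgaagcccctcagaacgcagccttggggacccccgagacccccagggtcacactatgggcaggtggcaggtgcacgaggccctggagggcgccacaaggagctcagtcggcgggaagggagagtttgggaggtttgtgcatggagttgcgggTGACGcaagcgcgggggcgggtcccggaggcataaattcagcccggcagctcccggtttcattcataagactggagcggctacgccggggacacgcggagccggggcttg
Egr2: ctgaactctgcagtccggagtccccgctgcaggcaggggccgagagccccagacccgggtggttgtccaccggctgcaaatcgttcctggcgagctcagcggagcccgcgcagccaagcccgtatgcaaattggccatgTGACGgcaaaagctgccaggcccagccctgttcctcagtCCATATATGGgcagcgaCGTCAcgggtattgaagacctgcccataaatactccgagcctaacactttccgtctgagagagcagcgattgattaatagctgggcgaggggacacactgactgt
Nr4a2: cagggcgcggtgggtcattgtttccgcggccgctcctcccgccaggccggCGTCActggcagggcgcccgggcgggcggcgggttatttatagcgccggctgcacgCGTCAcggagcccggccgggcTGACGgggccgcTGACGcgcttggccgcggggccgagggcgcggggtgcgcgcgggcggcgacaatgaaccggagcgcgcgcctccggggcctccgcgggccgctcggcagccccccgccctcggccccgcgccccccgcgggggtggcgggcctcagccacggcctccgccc
The TGACG core occurred 1 time in the Fosb window, 2 times in the Egr2 window and 4 times in the Nr4a2 window, and 20.8% of all 32851 windows of this length held at least 1. It also occurred in members with no strain call, with 2 matches in Fos, 1 in Junb, 4 in Nr4a1 and 4 in Nr4a3, and 0 in Jun. The CArG box occurred 1 time in the Egr2 window, in no other member gene's matched window and in 1.63% of all windows. Egr1 and Egr3 were not searched. The EGR motif GCGNGGGCG occurred 1 time each in the Fosb, Nr4a1 and Nr4a2 windows and in 5.55% of all windows. The full element TGACGTCA, the AP-1 motif TGANTCA and the NR4A motif AAAGGTCA were in none of the member windows, against 1.79%, 7.81% and 1.51% of all windows. All motifs were searched on both strands, TGACG lies within TGACGTCA, and these are matches of letters only.

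In activated effector cells 3 of the 13 tested probe sets changed between strains. Fosb and 1 Nr4a2 probe set rose in transgenic cells and 1 Egr2 probe set fell. Over all 18271 tested probe sets, 1.92% were called higher and 1.08% lower in transgenic effector cells (limma, adjusted p under 0.05). The median change of the 13 members was 0.06 on the log2 scale, against -0.01 over all tested probe sets. Groups of 3 arrays did not overlap for 6 of the 13 members, with 4 above and 2 below, while 22.8% of all tested probe sets had groups that did not overlap. The 6 belong to 3 genes, since they are the Fosb, the 3 Nr4a2 and the 2 Egr2 probe sets.

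Fosb, which encodes a FOS family partner of JUN proteins, read 9.36, 9.99 and 9.57 in transgenic effector cells, against 7.78, 6.78 and 8.23 in C57BL/6 effector cells (log2 GCRMA values). All 3 transgenic effector arrays lay above all 3 C57BL/6 effector arrays. The change was 2.04 on the log2 scale (SE 0.43), a 4.11-fold higher signal with a 95% interval of 2.14 to 7.90 (limma, adjusted p = 0.0272). The call was lost in 4 of the fits without 1 effector array and in the fits with no filter, with the replicate block and with the 6 effector arrays alone, where the adjusted p reached at most 0.110.

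Egr2, a zinc finger factor that restrains T cell activation in mice, moved the other way. Egr2-B read 6.86, 7.93 and 7.25 in transgenic effector cells, against 8.68, 9.56 and 8.61 in C57BL/6 effector cells, and the groups did not overlap. The change was -1.60 (SE 0.29), a 3.04-fold lower signal in transgenic cells (limma, adjusted p = 0.0126). It stayed past the threshold under every alternative except the fit of the 6 effector arrays alone, where its adjusted p was 0.124. The other probe set, Egr2-A, read 7.20, 7.23 and 7.68 in transgenic effector cells, against 8.12, 9.29 and 7.83 in C57BL/6 effector cells. Its groups did not overlap either, and its difference of -1.05 (SE 0.34) did not pass the test (adjusted p = 0.145). The mean of both probe sets fell by 1.32 (SE 0.29, adjusted p = 0.0335).

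Nr4a2, an orphan nuclear receptor, had higher values in transgenic effector cells on its 3 probe sets, of which 1 passed the test. Nr4a2-A read 8.77, 8.94 and 10.05 in transgenic effector cells, against 6.65, 7.06 and 6.85 in C57BL/6 effector cells. The C57BL/6 arrays lay close together and the lowest transgenic array was above all of them. The change was 2.40 (SE 0.51), a 5.29-fold higher signal (limma, adjusted p = 0.0276). Nr4a2-C read 9.17, 9.11 and 9.28 in transgenic effector cells, against 7.26, 7.71 and 7.61 in C57BL/6 effector cells, a difference of 1.66 (SE 0.57, adjusted p = 0.177). This difference passed in 4 alternatives, the 6 effector arrays alone (adjusted p = 0.0154), the replicate block (0.0086) and both kinds of array weights (0.0103 and 0.0064). Nr4a2-B read 7.29, 7.51 and 7.38 in transgenic effector cells, against 6.47, 6.52 and 6.93 in C57BL/6 effector cells, a difference of 0.75 (SE 0.56, adjusted p = 0.617). The groups of these probe sets did not overlap, but the fit uses 1 spread over all 12 arrays and both probe sets varied more among Treg arrays. Averaged over the 3 probe sets, the difference was 1.61 (SE 0.53) and did not pass (adjusted p = 0.156). The call of Nr4a2-A was lost in 5 of the fits without 1 effector array, with no filter and after quantile normalization, with an adjusted p of at most 0.117. The array identifier of Nr4a2-A carries the suffix S, which marks probes that can match more than 1 transcript.

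**Figure D1:**
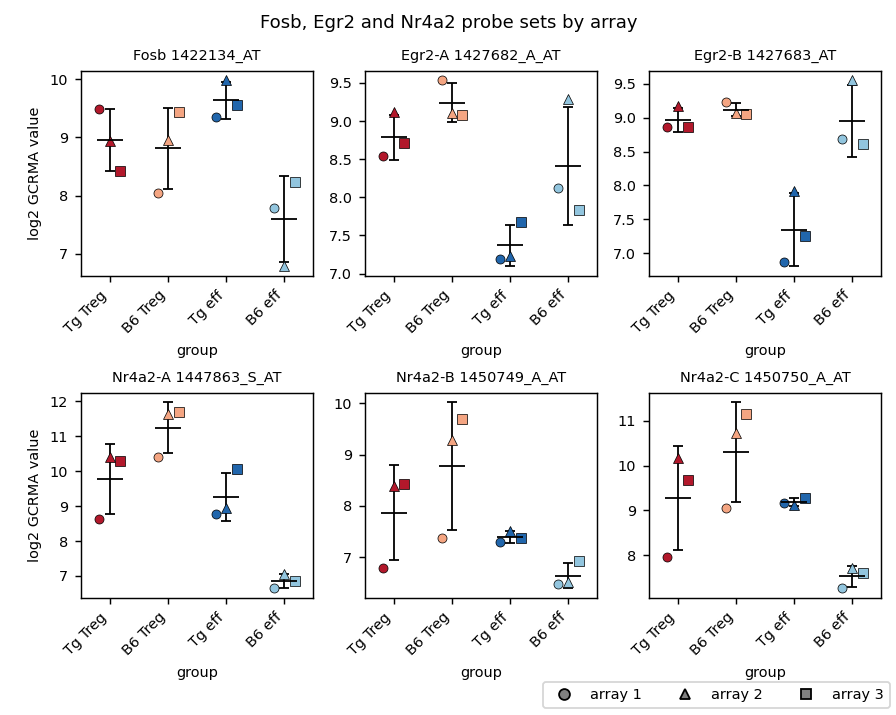
Log2 GCRMA values of the 6 Fosb, Egr2 and Nr4a2 probe sets on each of the 12 arrays, with transgenic (Tg) left of C57BL/6 (B6) in Treg and effector (eff) cells; bars are the mean and SD of 3 arrays and symbols the array number. In effector cells Fosb and Nr4a2 lie higher in transgenic arrays and Egr2 lower with no overlap, while the 3 Nr4a2 probe sets lie lower on average in transgenic Treg arrays.

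The remaining members did not pass the strain test in effector cells. Fos, the founding AP-1 member, read 12.72, 13.37 and 9.69 in transgenic effector cells, against 11.92, 11.16 and 12.65 in C57BL/6 effector cells. Array 3 of the transgenic group lay below all other effector arrays and its arrays 1 and 2 lay above all 3 C57BL/6 arrays, giving a difference of 0.02 (SE 0.74). Without that array the Fos difference was 1.14 (SE 0.36, limma, adjusted p = 0.159). Jun, the main AP-1 partner of FOS, read 12.17, 12.76 and 10.42 in transgenic effector cells, against 11.18, 11.23 and 12.74 in C57BL/6 effector cells on Jun-A. Its 2 probe sets differed by 0.06 and 0.04, and Jun-A by 0.75 without array 3 of the transgenic group (adjusted p = 0.570). Junb, an AP-1 subunit abundant in activated T cells, differed by 0.22 (SE 0.14), and by 0.35 without that array.

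Egr1, the EGR factor that follows ERK signalling, read 10.16, 10.37 and 8.67 in transgenic effector cells, against 10.17, 9.84 and 10.03 in C57BL/6 effector cells, again with array 3 of the transgenic group lowest. The Egr1 difference was -0.28 with that array and 0.25 without it, and passed in neither fit. Egr3, which overlaps with Egr2 in function, read 9.07, 9.16 and 7.16 in transgenic effector cells, against 9.67, 9.40 and 9.16 in C57BL/6 effector cells on Egr3-B. Its difference of -0.95 (SE 0.44, limma, adjusted p = 0.335) was -0.29 without array 3 of the transgenic group. Nr4a1, an NR4A receptor widely used as a readout of antigen receptor signalling, read 11.95, 12.03 and 11.09 in transgenic effector cells, against 11.32, 11.06 and 11.26 in C57BL/6 effector cells, a difference of 0.48 (SE 0.27) that was 0.78 without array 3 of the transgenic group (adjusted p = 0.142).

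Array 3 of the transgenic effector group was the lowest of the 6 effector arrays for 4 of the 13 members (Fos, Jun-A, Egr1 and Egr3) and the highest for 2. Over all tested probe sets it was lowest for 27.1% and highest for 28.4%, so the members stood near the background. Without it Fosb differed by 2.08 (limma, adjusted p = 0.0628), Egr2-B by -1.55 (adjusted p = 0.0401) and Nr4a2-A by 2.01 (adjusted p = 0.0839). Fosb and Nr4a2 thus no longer passed and Egr2 still did, with the sizes close to those over all arrays.

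**Figure D2:**
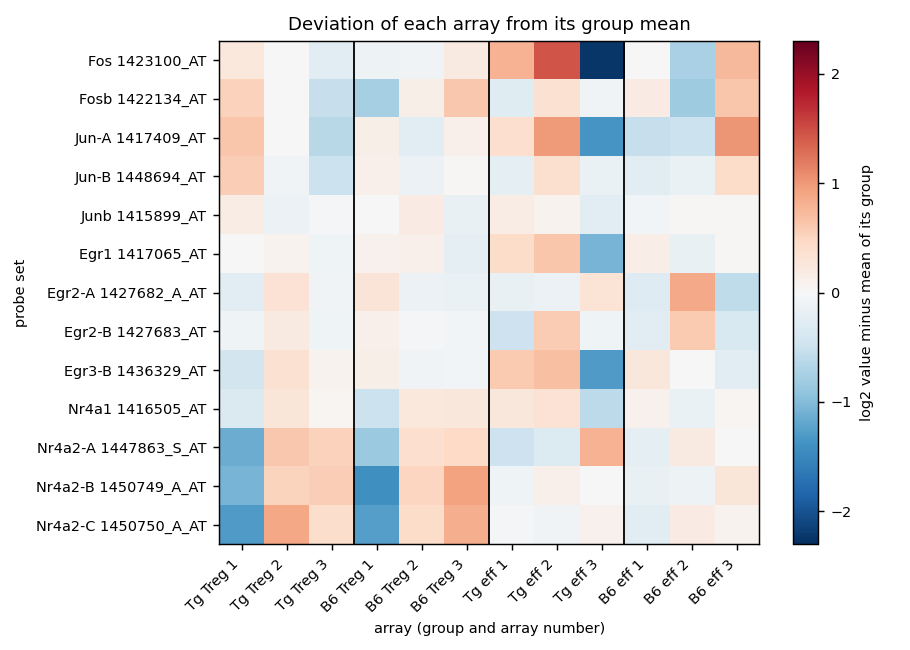
Deviation of each array's log2 value from the mean of its group for the 13 tested probe sets (rows) on the 12 arrays (columns), red above and blue below the group mean. Transgenic effector array 3 is blue for Fos, Jun-A, Egr1 and Egr3, and Treg array 1 of both strains is blue for the 3 Nr4a2 probe sets.

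In fresh Treg cells none of the 13 members passed the strain test (limma, adjusted p under 0.05), against 1.19% of all tested probe sets called in either direction. At an unadjusted p under 0.05 there was 1 member of 13, Nr4a2-A, against 9.38% of all tested probe sets. Nr4a2-A was also the only 1 of 13 whose groups did not overlap (14.8% of all tested probe sets). The median difference of the members was -0.15, against 0.03 over all tested probe sets. Fos read 14.27, 14.05 and 13.79 in transgenic Treg cells, against 14.06, 14.09 and 14.39 in C57BL/6 Treg cells, a difference of -0.15 with a 95% interval of -1.77 to 1.48. Fosb read 9.49, 8.94 and 8.42 in transgenic Treg cells, against 8.05, 8.95 and 9.43 in C57BL/6 Treg cells, a difference of 0.14 with an interval of -0.80 to 1.08. The Fosb groups overlapped.

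Egr2-B read 8.87, 9.17 and 8.86 in transgenic Treg cells, against 9.23, 9.08 and 9.05 in C57BL/6 Treg cells, a difference of -0.15 with an interval of -0.80 to 0.49. Its other probe set differed by -0.45 with an interval of -1.19 to 0.28. Egr1, Egr3, Jun, Junb and Nr4a1 differed by -0.25 to 0.20 between strains, none past the test. Of the 13 members Junb had the narrowest interval, from -0.11 to 0.51.

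Nr4a2 had lower values in transgenic Treg cells on all 3 probe sets. Nr4a2-A read 8.63, 10.39 and 10.30 in transgenic Treg cells, against 10.40, 11.63 and 11.70 in C57BL/6 Treg cells. All transgenic arrays lay below all C57BL/6 arrays, narrowly so for array 2 of the transgenic group. The difference was -1.47 (SE 0.51, limma, adjusted p = 0.306). Nr4a2-C read 7.97, 10.18 and 9.69 in transgenic Treg cells, against 9.04, 10.74 and 11.15 in C57BL/6 Treg cells, a difference of -1.03 (SE 0.57, adjusted p = 0.691). Nr4a2-B read 6.80, 8.38 and 8.43 in transgenic Treg cells, against 7.37, 9.28 and 9.70 in C57BL/6 Treg cells, a difference of -0.91 (SE 0.56, adjusted p = 0.738). The mean of the 3 probe sets differed by -1.14 (adjusted p = 0.549). Array 1 was lowest in both strains on every Nr4a2 probe set, and array 1 of the transgenic group came from the 33 week old mice. Without that transgenic array the differences shrank to -0.90 on Nr4a2-A and to -0.38 on both Nr4a2-B and Nr4a2-C. Without array 1 of the C57BL/6 group they grew to -1.89, -1.62 and -1.66 on Nr4a2-A, Nr4a2-B and Nr4a2-C.

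Each transgenic Treg array read lower for Nr4a2 than the C57BL/6 Treg array of the same number, by 1.24 to 1.77 on Nr4a2-A. On Nr4a2-A the direction holds under any numbering in the deposited values, since the groups did not overlap, but only just. The closest arrays were transgenic array 2 at 10.392 and C57BL/6 array 1 at 10.399. That gap is smaller than the one between their array medians, 3.08 and 3.25, so the separation does not hold after centring on medians. With replicate number as a block in both populations, the adjusted p was 0.0608 on Nr4a2-A, 0.122 on Nr4a2-B and 0.0855 on Nr4a2-C, and no member passed. With the block in the Treg arrays alone, a fit added after the data and the calls of the other block had been seen, all 3 Nr4a2 probe sets passed as lower, with adjusted p of 0.0478, 0.0492 and 0.0290 (limma), while 1.30% of all tested probe sets were called lower. The pairing behind that fit rests on how the arrays deviate and not on the labels. The 4 Treg arrays with consecutive provider sample codes, arrays 1 and 2 of both strains, gave -1.51 on Nr4a2-A (adjusted p = 0.480).

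The strain difference itself differed between populations for 1 probe set. For Nr4a2-A the strain difference in Treg cells minus that in effector cells was -3.87 (SE 0.72, limma, adjusted p = 0.0177), from -1.47 in Treg cells and 2.40 in effector cells, and 1.52% of all tested probe sets were called lower in this test. The other Nr4a2 probe sets gave -2.69 (adjusted p = 0.142) and -1.66 (adjusted p = 0.399), and the mean of the 3 gave -2.74 (SE 0.74, adjusted p = 0.0981). Fosb gave -1.90 (SE 0.61, adjusted p = 0.172) and Egr2-B gave 1.45 (SE 0.42, adjusted p = 0.118), so neither is shown to differ between the populations. With the replicate block 4 members passed, Egr2-B at an adjusted p of 0.0310 and the 3 Nr4a2 probe sets at up to 0.0366. The share of all tested probe sets called in that fit is not given, so the count shows nothing particular to the members. With the block in the Treg arrays alone the 3 Nr4a2 probe sets passed at up to 0.0136, while 1.91% of all tested probe sets were called lower. With the consecutive sample codes as a block none passed, and Nr4a2-A stood at 0.0512.

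**Figure D3:**
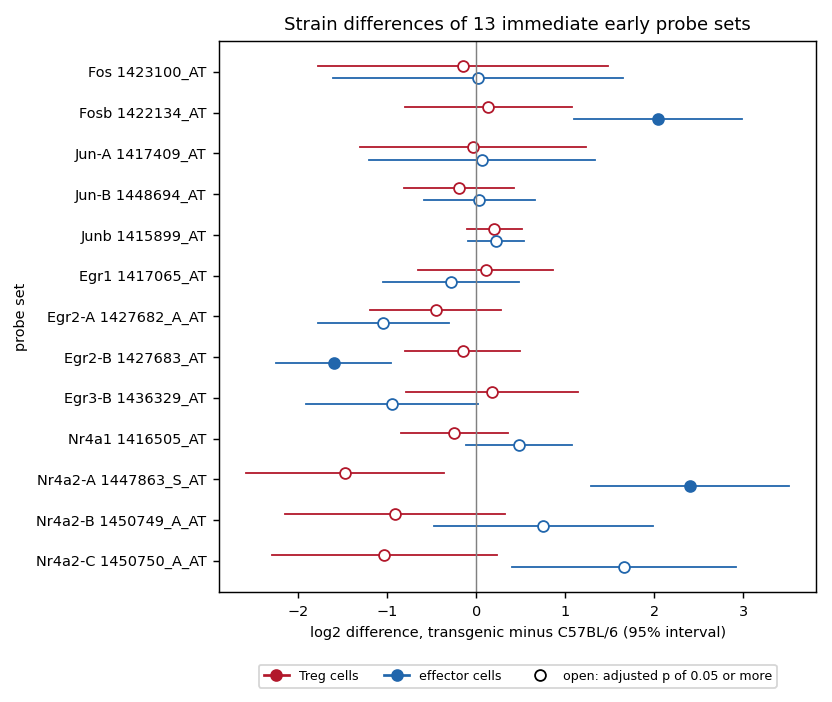
Strain difference, transgenic minus C57BL/6, on the log2 scale with its 95% interval for the 13 tested probe sets in Treg cells (red) and effector cells (blue); filled points have an adjusted p under 0.05. The 3 filled points are Fosb, Egr2-B and Nr4a2-A in effector cells, and the Nr4a2 points lie left of 0 in Treg cells and right of it in effector cells.

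Between populations most members read higher in fresh Treg cells than in cultured effector cells. In C57BL/6 mice 11 of 13 members rose and 1, Egr3, fell in Treg relative to effector cells, against 31.7% of all tested probe sets called higher and 42.0% called lower. The median difference of the members was 1.56, against -0.26 over all tested probe sets. In transgenic mice 8 of 13 rose and 0 fell, against 30.0% called higher and 40.0% called lower, and the medians were 1.28 and -0.21. Without transgenic effector array 3 the transgenic count was 6 higher and 1 lower, with no share over all tested probe sets given for that fit. Centring arrays on their medians moved the median of all tested probe sets to -0.11 in transgenic mice and turned no member's direction. These are array signals from populations whose value scales differ, since the 99th percentile lay at 12.9 to 13.0 on Treg arrays and at 13.5 to 13.6 on effector arrays. The lowest value differed too, at 0.94 to 0.96 on Treg arrays and at 0.30 to 0.33 on effector arrays. Whether GCRMA was run on both populations together is not known. Quantile normalization gave larger Treg minus effector values for all 13 members in both strains, such as 1.45 in place of 0.83 for Nr4a1 in transgenic mice and 1.27 in place of 0.83 for Egr2-A in C57BL/6 mice. Of all called probe sets, 42.9% were higher in transgenic Treg cells and 43.0% in C57BL/6 Treg cells, and after quantile normalization 50.5% and 49.1%, so the balance of the background depends on the scaling.

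Among AP-1 members, Junb rose in Treg cells of both strains. It read 14.20, 13.89 and 13.98 in transgenic Treg cells, against 11.85, 11.76 and 11.43 in transgenic effector cells. In C57BL/6 mice Junb read 13.82, 14.01 and 13.64 in Treg cells, against 11.40, 11.48 and 11.48 in effector cells. No Junb array of one population overlapped the other, and the difference was 2.35 in transgenic and 2.37 in C57BL/6 mice (SE 0.14 each, limma, adjusted p = 6.8e-08 and 6.0e-08). Fos rose by 2.11 in transgenic mice (adjusted p = 0.0242) and by 2.28 in C57BL/6 mice (adjusted p = 0.0157). In transgenic mice the Fos difference was 0.99 without effector array 3 (adjusted p = 0.0329), and its call was lost in 5 of 21 alternatives, at an adjusted p of at most 0.0656. In C57BL/6 mice it was lost in 1, without effector array 2 (adjusted p = 0.0622). Jun rose by 1.28 on Jun-B in transgenic mice and by 1.50 in C57BL/6 mice (adjusted p = 0.0017 and 0.0005), and its other probe set passed at 0.0474 in transgenic and 0.0340 in C57BL/6 mice. The transgenic value of Jun-A, 1.40, was 0.72 without effector array 3 and no longer passed (adjusted p = 0.200). The Jun-A call was lost in 14 of 21 alternatives in transgenic mice and in 5 of 21 in C57BL/6 mice.

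Fosb, unlike the other AP-1 genes, passed the population test in 1 strain only. It rose by 1.21 in C57BL/6 Treg cells relative to C57BL/6 effector cells (SE 0.43, limma, adjusted p = 0.0236), a call lost in 4 of 21 alternatives, while the transgenic difference was -0.69 (SE 0.43, adjusted p = 0.171), and the test of that difference between strains did not pass (adjusted p = 0.172).

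Among EGR members, Egr1 read 12.11, 12.17 and 12.00 in transgenic Treg cells and 12.09, 12.12 and 11.77 in C57BL/6 Treg cells, above every effector array. It rose by 2.37 in transgenic mice (limma, adjusted p = 8.7e-05), or 1.83 without effector array 3, and by 1.98 in C57BL/6 mice (adjusted p = 0.0003). Egr2 rose in transgenic Treg cells relative to transgenic effector cells on both probe sets, by 1.42 and 1.62 (adjusted p = 0.0027 and 0.0004). In C57BL/6 mice the Egr2 differences were 0.83 (adjusted p = 0.0428) and 0.17 (adjusted p = 0.616). The first of these no longer passed in 11 of 21 alternatives. Egr3 was the only member that fell in the fit over all arrays, by 1.40 in C57BL/6 Treg cells relative to effector cells (SE 0.44, adjusted p = 0.0132), and after quantile normalization its difference of -0.96 stood at 0.0502. Its transgenic difference was -0.28, quantile normalization gave 0.09, and without transgenic effector array 3 it was -0.93 and passed as lower (adjusted p = 0.0045).

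Among NR4A members, Nr4a1 read 12.20, 12.80 and 12.58 in transgenic Treg cells and 12.28, 13.01 and 13.02 in C57BL/6 Treg cells, above every effector array of the same strain. It rose by 0.83 in transgenic mice (SE 0.27, limma, adjusted p = 0.0172), a call lost without transgenic effector array 3 (0.53, adjusted p = 0.0673) or transgenic Treg array 2 (adjusted p = 0.0685), and by 1.56 in C57BL/6 mice (SE 0.27, adjusted p = 0.0003). Nr4a2-A rose by 4.39 in C57BL/6 mice, a 21.0-fold higher signal in Treg cells with a 95% interval of 9.71 to 45.5 (adjusted p = 1.1e-05). The other Nr4a2 probe sets rose by 2.14 and 2.78 in C57BL/6 mice (adjusted p = 0.0047 and 0.0010). In transgenic mice the 3 Nr4a2 differences were 0.52, 0.48 and 0.09 and did not pass. Nr4a2-A passed as higher without transgenic Treg array 1 (1.09, adjusted p = 0.0480) and with both kinds of array weights (1.05 and 1.04, adjusted p = 0.0238 and 0.0193), and was 0.92 without transgenic effector array 3 (adjusted p = 0.141). Both population comparisons use different arrays, and their difference is the same test as that of the strain differences.

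**Figure D4:**
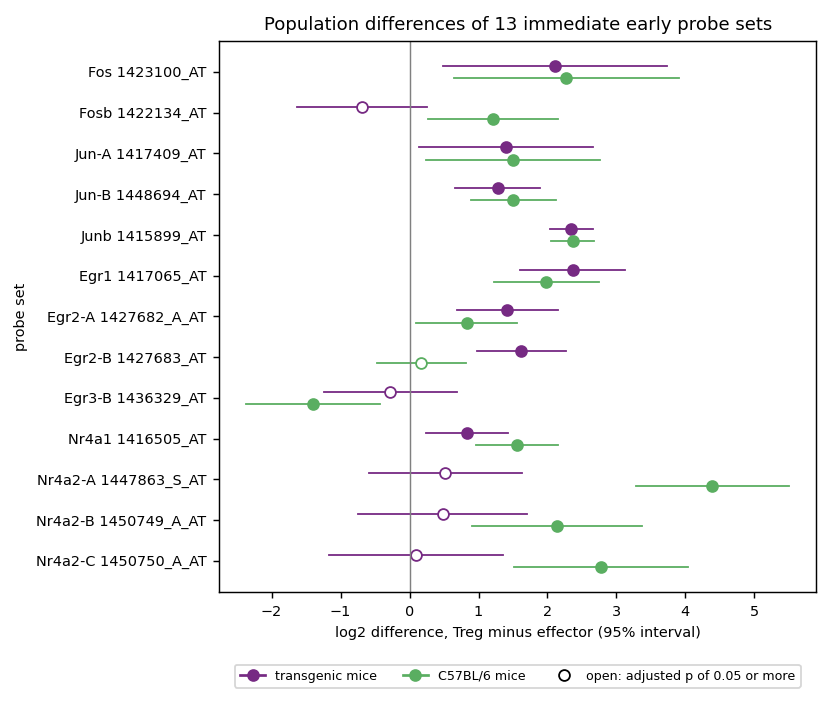
Difference between populations, Treg minus effector, on the log2 scale with its 95% interval for the 13 tested probe sets in transgenic mice (purple) and C57BL/6 mice (green); filled points have an adjusted p under 0.05. Most points lie right of 0, Egr3 lies left of it in C57BL/6 mice, and the Nr4a2 points are filled in C57BL/6 mice and open in transgenic mice.

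Among the 3 probe sets below the filter, Egr3-A stayed between 1.09 and 1.50 on all arrays. Nr4a3-A read 3.18, 4.78 and 3.19 in transgenic Treg cells, against 2.83, 3.31 and 4.61 in C57BL/6 Treg cells, and between 2.48 and 2.54 on effector arrays. Nr4a3, the third NR4A receptor, read between 2.23 and 3.02 on Nr4a3-B. These values are near the lower end of the arrays, so nothing was read from them. They enter only the counts of the fit with no filter.

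Of the 13 members, 12 had a residual SD, pooled over all groups, above that of the median tested probe set. The median residual SD over the 13 members was 0.598, against 0.296 over all tested probe sets. This did not hold in every group. In C57BL/6 Treg cells the median SD of the members was lower, 0.217 against 0.298 over all tested probe sets. In transgenic Treg, transgenic effector and C57BL/6 effector cells it was higher, 0.391, 0.519 and 0.258 against 0.212, 0.250 and 0.162. Fos had an SD of 1.97 in transgenic effector cells, at the 99.8th percentile of all tested probe sets in that group. Junb was the exception among the pooled values, with a residual SD of 0.164.

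**Figure D5:**
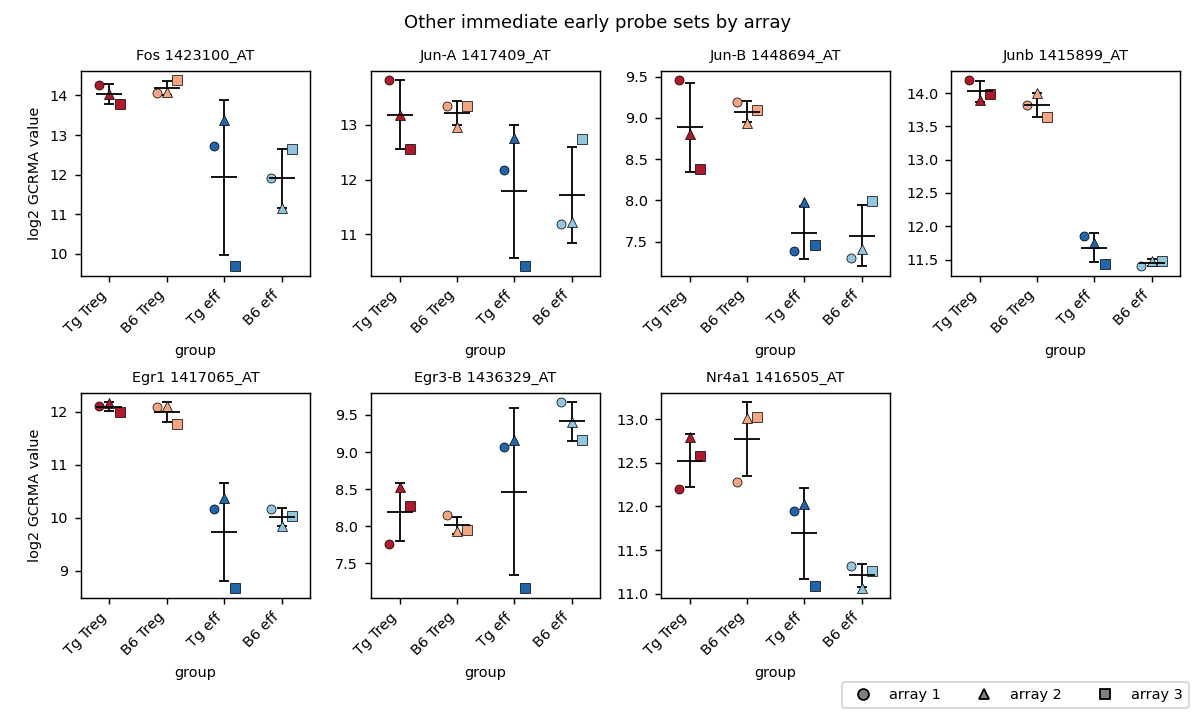
Log2 GCRMA values of the 7 tested probe sets of Fos, Jun, Junb, Egr1, Egr3 and Nr4a1 on each array, with transgenic (Tg) left of C57BL/6 (B6) in Treg and effector (eff) cells; bars are the mean and SD of 3 arrays. Treg arrays lie above effector arrays with no overlap for Fos, Jun-B, Junb, Egr1 and Nr4a1. Transgenic effector array 3 is the low point for Fos, Jun-A, Egr1 and Egr3.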

How the data were processed

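RNA of 12 samples was measured on Affymetrix mouse arrays, 1 array a sample. The deposited values are log2 intensities that the authors normalized with GCRMA, per the submitters' processing notes. Its version is not given there. Array medians lay between 3.08 and 3.27, and correlations between arrays of a group between 0.923 and 0.992. The number of arrays limits the precision.

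Groups came from sample titles. limma 3.58.1 (R 4.3.3) fitted 4 group means to the deposited log2 values on all 12 arrays with a trended prior, after 64 control probe sets and probe sets under a log2 value of 5 on all but 2 or fewer arrays were left out. Adjusted p-values are Benjamini-Hochberg values over the 18271 tested probe sets, called under 0.05. The script was tested on simulated data with the same spread in every group. That test does not cover members whose spread differed between groups, such as Fos. All 16 member probe sets are named. The members and lists were chosen with earlier results of these data known.

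The labels give replicate numbers but not what they mark. Deviations from group means correlated between same-numbered Treg arrays at 0.583, 0.102 and 0.511, all over 0.1, the second by little. On this ground Treg numbers were taken as pairs in the block fit of the Treg arrays alone. The fit as reported used no pairs, and the correlations come from the same arrays that the block fit tests. Transgenic Treg array 2 was closer to C57BL/6 Treg array 3 (0.114). Effector arrays gave 0.211, -0.338 and -0.342 and were not paired. Blocks, normalizations, filters, weights, averaged probe sets and leaving out each array were tried. Probe set annotation was not used here, so related genes, cell type markers and Il2rb were not looked up, and cell identity rests on the labels, which give post-sort purities of 99.0% to 99.9% for 11 of 12 arrays.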

Additional observations from a re-analysis of the deposited data

Results flagged for a closer look

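The strain difference of Nr4a2-A differed between Treg and effector cells by -3.87 on the log2 scale (SE 0.72, limma, adjusted p = 0.0177). In the deposited values all transgenic arrays lay below all C57BL/6 arrays in Treg cells and above them in effector cells. In Treg cells the closest arrays read 10.392 and 10.399, a separation that does not hold after centring on array medians. This probe set was picked out because the test of the difference itself passed. The mean of the 3 Nr4a2 probe sets gave -2.74 and did not pass (adjusted p = 0.0981), and over the alternatives the adjusted p of Nr4a2-A ranged up to 0.0595.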

How the results depend on the processing

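Of 1404 recomputed values of 65 member differences, 1245 kept their direction and their side of the threshold, 61 lost a call, 40 gained one and 58 changed sign, none of these called before or after. In Treg cells 0 members differed between strains in the fit as reported. With REML array weights 3 passed, but that fit did not converge and put a weight of 36.2 on C57BL/6 Treg array 2. With gene-by-gene weights, added after seeing the data, 1 passed (Nr4a2-A, adjusted p = 0.0217). With the replicate block in the Treg arrays alone, also added after seeing the data, 3 passed, and with the replicate block in both populations 0 passed. Effector array numbers were not taken as pairs. In effector cells, with 3 calls as reported, the count was 1 with no filter, 7 with either kind of weights, and 1 to 3 when 1 array was left out. The count of 1 came without C57BL/6 effector array 1 or 2 or transgenic effector array 2 or 3, and the member left was Egr2-B. For Treg minus effector, leaving out 1 array at a time gave counts of 9 to 12 in C57BL/6 mice and 5 to 8 in transgenic mice, with 5 reached without transgenic Treg array 2. The other alternatives gave 10 to 13 in C57BL/6 mice and 6 to 9 in transgenic mice, and the 9 with either kind of weights were 7 higher and 2 lower. The fit with no filter gave the 13 in C57BL/6 mice and also 9 in transgenic mice. Those counts include probe sets near the lower end of the arrays, Egr3-A in both strains and Nr4a3-A in transgenic mice. The test of the difference between strain differences, with 1 call as reported, gave 6 with REML weights, 5 with gene-by-gene weights, 4 with the replicate block, 3 with the block in the Treg arrays alone, 0 with consecutive sample codes as a block and 0 to 2 when 1 array was left out. It gave 0 without C57BL/6 effector array 1 or C57BL/6 Treg array 2, and 2 without C57BL/6 Treg array 1. For most of these alternatives the share of all tested probe sets called is not given. The counts therefore show how calls move with the fit and nothing particular to the members.

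For the strain difference in Treg cells the sign turned with consecutive sample codes as a block Fos 0.082, Jun-A 0.34, Jun-B 0.070, and with gene-by-gene weights Fosb -0.069, Jun-A 0.032, Egr1 -0.0085, and with REML weights Fosb -0.13, Jun-A 0.060, Junb -0.011, Egr1 -0.027, and after centring on array medians Jun-A 0.043. Leaving out 1 array at a time, Fosb ran from -0.24 to 0.45, Jun-A ran from -0.35 to 0.28, Jun-B ran from -0.48 to 0.059, Egr1 ran from -0.0066 to 0.17. For the strain difference in effector cells the sign turned with gene-by-gene weights Egr1 0.097, and with REML weights Egr1 0.12. Leaving out 1 array at a time, Fos ran from -0.70 to 1.14, Jun-A ran from -0.42 to 0.75, Jun-B ran from -0.15 to 0.25, Egr1 ran from -0.60 to 0.25. For Treg minus effector in C57BL/6 mice, leaving out 1 array at a time, Egr2-B ran from -0.0019 to 0.47. For Treg minus effector in transgenic mice the sign turned after quantile normalization Egr3-B 0.092. Leaving out 1 array at a time, Egr3-B ran from -0.93 to 0.071, Nr4a2-C ran from -0.36 to 0.74. For the difference between the strain differences the sign turned with consecutive sample codes as a block Fos 0.060, Jun-A 0.28, Jun-B 0.034, and after centring on array medians Junb 0.034, and with gene-by-gene weights Egr1 -0.11, and with REML weights Egr1 -0.15. Leaving out 1 array at a time, Fos ran from -1.29 to 0.55, Jun-A ran from -0.78 to 0.39, Jun-B ran from -0.51 to 0.023, Junb ran from -0.14 to 0.073, Egr1 ran from -0.15 to 0.70. The cause of these changes was not tested. With 3 arrays a group, differences of the size of the array spread cannot be resolved.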
